A study of Mus musculus with 20 samples.

Results

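Genes whose RNA level rose or fell with a proliferation index among brain libraries of MIR offspring are described here. MIR offspring are mice born to dams given lipopolysaccharide, a bacterial cell wall component, once at 0.008 mg/kg on day 9 of gestation (maternal inflammation response), and control offspring came from dams given saline. The index of a library was the mean of log2(CPM + 0.5) of Mki67 and Top2a, where CPM is a gene's counts scaled by the library's total. A gene was a higher follower when the Pearson r between its log2(CPM + 0.5) and the index, with the mean of each treatment removed, was 0.8 or more over the 10 MIR libraries and again over the 8 libraries left without MIR vehicle 2 and MIR rapamycin 4. An inverse follower had r of -0.8 or less in both. Of 48795 genes in the table, 15080 candidates had a mean of 1 CPM or more over the MIR libraries, and 90 followed the index, 85 of them higher and 5 inverse. The members were thus chosen by these r values, so r and slope among the MIR libraries are given as a description with no test.

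The series held 20 libraries, 5 each from control offspring given vehicle, control offspring given rapamycin, MIR offspring given vehicle and MIR offspring given rapamycin. Rapamycin, an inhibitor of the kinase mTOR, or its vehicle was injected 2 hours before the tissue was taken. The mice were of the CD-1 strain per the study's methods, which name the tissue as sensory-motor cortex where the labels say brain, and the labels gave neither the age, sex nor litter of a library. The study's list of litters marks young mice and fewer litters for sequencing than there are libraries of either kind of offspring. Libraries therefore share litters, which ones is not given here, p-values treat them as independent and are too small to that extent, and whether the index goes with litter was not tested. Library totals ran from 17846282 to 24460104 counts. Markers of the choroid plexus summed to 1307 CPM in control vehicle 3, against 2.44 to 43.6 CPM in the other 19 libraries, and cortical excitatory markers were at 2812 CPM in the lowest control vehicle library, against 7157 to 8809 CPM over the MIR vehicle group. Control vehicle 2 held leukocyte markers at 225.4 CPM and cerebellar markers at 3328 CPM, the highest of the 20 libraries for both. Comparisons with the control vehicle group are therefore also given without control vehicle 1, 2 and 3.

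Mki67 encodes the Ki-67 protein, which coats mitotic chromosomes and is absent from resting cells. Top2a encodes topoisomerase II alpha, which untangles sister chromosomes before they part. Many genes of mitosis are switched on together late in the cell cycle, through a CCAAT box bound by NF-Y and a cell cycle genes homology region, with the letters TTTGAA or TTTAAA, that the DREAM and B-Myb complexes bind. In the adult cortex few cells divide, chiefly oligodendrocyte precursors, microglia and cells of the vessels. In bulk tissue, fewer cells of a type and less RNA per cell cannot be told apart.

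The promoters of the index genes and of a few followers are shown because the shared boxes can be read in them. They were taken from RefSeq on GRCm38.p6, as up to 180 bases that end before the first listed start of each gene, or before its GENCODE M21 start where that lies further upstream, 5′ to 3′ on the gene's strand, with the boxes on either strand in capitals. On the reverse strand CCAAT reads as ATTGG. In the same way TTTGAA reads as TTCAAA. The window of Mki67 lies at chr7:135716380-135716559 and that of Top2a at chr11:99024190-99024369, both on the minus strand. Those of the cell cycle followers Cdk1 (chr10:69352939-69353092, minus) and Plk1 (chr7:122159255-122159434, plus) hold both kinds of box. The windows of Themis2 (chr4:132796388-132796544, minus) and Arhgap30 (chr1:171388780-171388953, plus), followers known from blood cells, are set beside them. These windows were picked after the motifs had been searched.
Mki67: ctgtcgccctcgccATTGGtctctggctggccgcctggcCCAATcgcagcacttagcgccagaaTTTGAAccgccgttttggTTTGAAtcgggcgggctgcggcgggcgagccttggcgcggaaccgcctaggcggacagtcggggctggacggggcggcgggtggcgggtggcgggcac
Top2a: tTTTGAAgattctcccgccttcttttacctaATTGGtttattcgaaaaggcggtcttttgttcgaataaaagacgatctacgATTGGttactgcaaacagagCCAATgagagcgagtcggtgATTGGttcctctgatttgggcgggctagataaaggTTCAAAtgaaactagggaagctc
Cdk1: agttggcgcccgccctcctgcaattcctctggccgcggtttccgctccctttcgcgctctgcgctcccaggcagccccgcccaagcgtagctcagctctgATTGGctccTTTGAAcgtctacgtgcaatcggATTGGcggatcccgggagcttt
Plk1: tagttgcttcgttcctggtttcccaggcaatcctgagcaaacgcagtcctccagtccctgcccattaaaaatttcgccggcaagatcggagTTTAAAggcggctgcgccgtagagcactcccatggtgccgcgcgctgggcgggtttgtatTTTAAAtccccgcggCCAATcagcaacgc
Themis2: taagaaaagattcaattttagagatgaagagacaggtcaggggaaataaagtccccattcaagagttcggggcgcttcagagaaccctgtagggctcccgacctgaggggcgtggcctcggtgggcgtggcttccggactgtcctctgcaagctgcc
Arhgap30: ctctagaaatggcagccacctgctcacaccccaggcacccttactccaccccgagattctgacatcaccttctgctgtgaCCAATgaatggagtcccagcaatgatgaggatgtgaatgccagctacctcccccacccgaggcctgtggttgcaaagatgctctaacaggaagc

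The index split the MIR libraries widely and the control libraries hardly at all. Among MIR vehicle libraries 1 to 5 it was 4.02, -0.22, 3.87, 4.17 and 3.14. Among MIR rapamycin libraries 1 to 5 it was 3.98, 3.61, 4.39, 1.41 and 2.67. MIR vehicle 2 therefore sat at the level of the controls, whose 10 libraries ran from -0.23 to 0.68, and MIR rapamycin 4 sat between them and the rest of the MIR libraries.

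The counts behind the index were small. Mki67 (ENSMUSG00000031004, chr7:135689784-135716361 in GENCODE M21 on GRCm38) had 305, 9, 320, 388 and 208 counts in MIR vehicle 1 to 5 and 293, 301, 475, 59 and 155 counts in MIR rapamycin 1 to 5, against 9 to 35 counts in the controls. In CPM this was 12.3 ± 7.504 (SD, n = 5) in MIR vehicle, 12.2 ± 8.10 in MIR rapamycin, 1.09 ± 0.38 in control vehicle and 0.98 ± 0.52 in control rapamycin. Top2a (ENSMUSG00000020914, chr11:98992943-99024189) had 259, 6, 298, 316 and 142 counts in MIR vehicle and 320, 216, 356, 37 and 133 counts in MIR rapamycin. The same 2 libraries were lowest for both genes, and the treatment-centred r between Mki67 and Top2a was 0.99 over 10 libraries and 0.94 over 8.

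**Figure D1:**
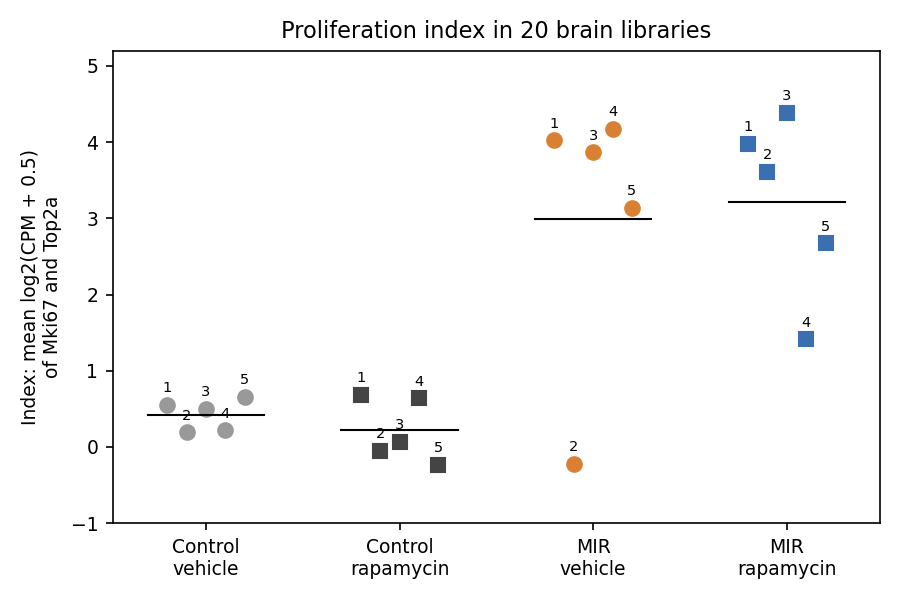
The index, the mean log2(CPM + 0.5) of Mki67 and Top2a, in each of the 20 libraries by group, with the library's number above its point and the group mean as a bar. MIR vehicle 2 sits at -0.22, among the controls, and MIR rapamycin 4 at 1.41, below the 8 other MIR libraries, which run from 2.67 to 4.39.

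The treatments did not separate on the index. Its mean was 3.00 ± 1.84 (SD, n = 5) in MIR vehicle and 3.21 ± 1.19 in MIR rapamycin, a difference of 0.217 with an exact two-sided permutation p of 0.825, where the smallest p possible is 0.00794. The sign of the difference turned without MIR vehicle 2, to -0.587, and without MIR rapamycin 3, to -0.0766.

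Depth moved with the index. The centred r of log2 total counts with the index was -0.38 over 10 libraries and -0.73 over 8, so libraries of high index were the shallower ones, and that of the mitochondrial share of counts was 0.26 and 0.39. With log2 total counts removed beside the treatment means, which was chosen after the values had been seen, 41 of the 85 higher followers stayed at 0.8 or more in both sets of libraries, among them 27 of the cell cycle genes named next. Its part in the result was not tested otherwise.

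The 85 higher followers made up 0.564% of the candidates. Over all candidates the median r was 0.104 with 10 libraries and 0.0783 with 8. Either set alone was far less strict, with 358 genes at 0.8 or more over the 10 libraries and 377 over the 8. Just inside the threshold lay F11r, an adhesion protein of tight junctions, at 0.810 and Ube2c at 0.804. Just outside lay Gm38317 at 0.7995 and Alox5ap, the partner of 5-lipoxygenase in leukotriene synthesis, at 0.799. For grouping, each follower was put after its values had been seen, and from general knowledge of the gene, among cell cycle genes (40), genes known from blood and myeloid cells (19, called myeloid followers) or other genes (26).

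Cell cycle genes led the ranking. By the r nearer to 0 of the 2 sets, the first 8 followers were Nusap1 and Ccna2 at 0.97, Aurkb at 0.96, Cenpe, Bub1b and Iqgap3 at 0.95, Cdk1 at 0.94 and Ckap2l at 0.93. Prr11, at 0.92, came after the myeloid follower Themis2. The slope of log2(CPM + 0.5) on the index over 10 libraries had a median of 0.395 over the 40 genes, from 0.127 for Cep192, a centrosome protein, to 0.627, and a median of 0.675 over the 8 libraries.

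Ccna2, cyclin A2, which pairs with Cdk2 in S phase and Cdk1 in G2, was at 4.59, 0.77, 4.98, 6.06 and 2.89 CPM in MIR vehicle 1 to 5. In MIR rapamycin 1 to 5 it was at 4.39, 4.60, 6.36, 1.15 and 1.88 CPM, and in the 10 controls at 0.42 to 1.11 CPM. Vehicle 2 lay inside the control range and rapamycin 4 just above it, and every other MIR library lay above both.

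Cdk1, the kinase that drives entry into mitosis, was at 2.97, 0.05, 2.19, 2.15 and 1.16 CPM in MIR vehicle and 2.34, 1.75, 2.38, 0.32 and 0.53 CPM in MIR rapamycin. The controls were at 0 to 0.24 CPM. MIR vehicle 2 was the sole MIR library to overlap them.

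Nusap1, a microtubule binder of the spindle, was at 3.70, 0.24, 2.88, 3.76 and 1.496 CPM in MIR vehicle and 3.19, 2.16, 4.12, 0.78 and 1.23 CPM in MIR rapamycin, against 0.18 to 0.60 CPM in the controls. Aurkb, the kinase of the chromosomal passenger complex, was at 1.91, 0.05, 1.78, 1.65 and 0.92 CPM in MIR vehicle and 1.80, 1.104, 1.94, 0.09 and 0.53 CPM in MIR rapamycin, against 0 to 0.22 CPM. MIR vehicle 2 was the lowest for both, and rapamycin 4 lay above every control for Nusap1 and among the controls for Aurkb.

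Bub1b, a kinase-like protein of the spindle checkpoint, was at 2.47, 0.19, 2.60, 3.61 and 1.40 CPM in MIR vehicle and 2.49, 2.99, 4.32, 0.32 and 1.02 CPM in MIR rapamycin, against 0 to 0.40 CPM in the controls. Cenpe, a kinesin of the kinetochore, was at 4.15, 0.72, 4.39, 4.56 and 3.28 CPM in MIR vehicle and 5.69, 4.56, 6.26, 2.12 and 2.29 CPM in MIR rapamycin, against 0.89 to 2.69 CPM. Cenpe was thus present in the controls at levels that reached those of rapamycin 5, and in MIR vehicle 2 it was below all of them.

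Iqgap3, a scaffold protein linked to division, ran from 0.24 to 2.76 CPM in MIR vehicle and from 0.74 to 3.33 CPM in MIR rapamycin, against 0.09 to 0.62 CPM in the controls. The spindle protein Ckap2l ran from 0.77 to 3.70 and from 1.20 to 4.97 CPM, against 0.35 to 0.94 CPM. Prr11 ran from 0.14 to 2.45 and from 0.65 to 3.03 CPM, against 0.11 to 0.98 CPM.

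The rest of the cell cycle followers covered most stages of mitosis. They included kinetochore parts (Casc5, also named Knl1, and Nuf2), kinesins (Kif2c, Kif11, Kif20b, Kif22 and Kif23), the spindle factors Dlgap5, Tpx2, Prc1 and Aspm, the passenger protein Birc5, the kinase Plk1, the condensin subunit Smc4 and Ube2c, the ubiquitin carrier of the anaphase-promoting complex. The transcription factor Foxm1, which drives such genes, was among them. MIR vehicle 2 was the lowest MIR library for 32 of the 40 genes, and for 22 of the 40 the 8 libraries of higher index lay above every control. Both counts restate the choice of members in part. MIR vehicle 2 has the lowest index, and 28 of the 40 genes averaged under 1 CPM in the controls. The same counts over all candidates were not made.

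Followers were counted in lists of genes for each stage of the cycle. Of 68 mitosis genes that reached 1 CPM, 28 were higher followers, and their median r was 0.853 over 10 libraries and 0.787 over 8. Of 52 DNA replication genes, 5 were followers (Ccna2, Uhrf1, Clspn, Mcm10 and Rrm2), with medians of 0.314 and 0.361. The replicative helicase was split, with Mcm3 at r = 0.86 and 0.68, Mcm5 at 0.56 and 0.87, Mcm7 at 0.36 and 0.16 and Mcm4 at 0.44 and -0.04. The sliding clamp Pcna was at 0.61 and 0.37.

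The E2F factors and pocket proteins held 2 followers of 16, E2f2 and Rbl1, the pocket protein p107, and E2f8 stood just outside at 0.94 and 0.79. Homologous recombination held Brca1 alone of 15, although the list's median was 0.511 over 10 libraries and 0.799 over 8. The G1 list held Cdkn2c, an inhibitor of Cdk4 and Cdk6, alone of 13, and its cyclins Ccnd1 (0.16 and 0.12) and Ccnd3 (0.77 and 0.10) did not follow in both sets.

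The myeloid followers had smaller slopes, with a median of 0.273 over 10 libraries, from 0.150 for Rasal3 to 0.446 for the receptor Adgrg5, and of 0.462 over 8. Their r values were as high as those of the cell cycle genes, with medians of 0.919 and 0.892 against 0.923 and 0.891, which the rule itself bounds from below. Nearly all were also present in the controls, since 17 of the 19 had a control mean of 1 CPM or more, against 12 of the 40 cell cycle followers.

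Themis2, an adaptor of macrophage and B cell signalling, ranked first among them at r = 0.98 and 0.93. It was at 2.24, 1.01, 2.24, 2.55 and 2.07 CPM in MIR vehicle and 2.69, 2.30, 3.03, 1.75 and 2.00 CPM in MIR rapamycin, against 0.64 to 2.11 CPM in the controls. MIR vehicle 2 lay within the control range, and control vehicle 1 and 2, at 2.11 and 2.07 CPM, reached that of the 8 MIR libraries of higher index.

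Arhgap30 and Rasal3, a Ras-inactivating protein of blood cells, followed at 0.92. Arhgap30 was at 6.16, 3.66, 6.08, 5.71 and 4.97 CPM in MIR vehicle and 5.94, 5.80, 6.46, 3.32 and 4.13 CPM in MIR rapamycin. The highest value of all was a control, 7.62 CPM in control vehicle 2, so that the vehicle groups overlapped. That library was also the highest of all for leukocyte markers. Control rapamycin libraries were at 3.33 to 3.96 CPM, below 4 of the 5 MIR rapamycin libraries. Rasal3 ran from 3.03 to 4.76 CPM in MIR vehicle and from 2.77 to 4.67 CPM in MIR rapamycin, with 5.02 CPM in control vehicle 2.

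Slco2b1, an organic anion transporter found in microglia of the mouse brain, was at 27.4, 14.7, 23.8, 22.9 and 20.3 CPM in MIR vehicle and 21.5, 20.2, 24.6, 15.3 and 15.8 CPM in MIR rapamycin, against 11.5 to 18.2 CPM in the controls. Olfml3, a secreted protein of microglia and the sole follower on the microglia list, was at 30.4, 11.4, 21.98, 25.5 and 21.1 CPM in MIR vehicle and 19.4, 18.96, 20.3, 8.30 and 10.4 CPM in MIR rapamycin, against 5.03 to 13.2 CPM. For both, MIR vehicle 2 and MIR rapamycin 4 and 5 fell within the control range and the 7 other MIR libraries lay above it.

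The other 14 included Pik3cg, the gamma form of PI3 kinase, Hk3, a hexokinase of myeloid cells, the inflammasome sensors Aim2 and Naip5, the chemokine Ccl6, the Toll-like receptor relative Cd180, the GTPase Rac2, Was, the protein lost in Wiskott-Aldrich syndrome, and the RNA-editing enzyme Apobec1. Adgrg5, the one with the largest slope, ran from 0.10 to 1.62 CPM in MIR vehicle and 0.18 to 2.24 CPM in MIR rapamycin, against 0.09 to 0.53 CPM in the controls.

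The microglia list as a whole moved with the index, more so over 10 libraries than over 8. Its 20 genes had median r values of 0.761 and 0.496, 19 of them above 0 over 10 libraries and 20 over 8. Itgam, the integrin CD11b, stood at 0.93 and 0.74, Selplg at 0.74 and 0.75, and Csf1r, the receptor that keeps microglia alive, at 0.84 and 0.62. C1qc, a chain of complement C1q, was at 0.93 and 0.55, whereas the purinergic receptors P2ry12 (0.18 and 0.30) and P2ry13 (-0.32 and 0.15) had low values.

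Over its 20 entries in the table other than Olfml3 (1 gene has more than 1 entry) the list summed to 941.3, 531.8, 679.5, 761.5 and 770.5 CPM in MIR vehicle 1 to 5 and 738.3, 729.9, 808.1, 512.2 and 579.3 CPM in MIR rapamycin 1 to 5. The controls ran from 409 to 784 CPM. The centred r of this sum with the index was 0.874 over 10 libraries and 0.664 over 8, and MIR vehicle 2 and MIR rapamycin 4 were again the lowest MIR libraries.

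That summed level was removed beside the treatment means as well, a choice made once the values had been seen. The median r of the cell cycle followers was then 0.699 over 10 libraries and 0.877 over 8, and 9 of the 40 stayed at 0.8 or more in both. For the myeloid followers the medians were 0.628 and 0.822, and 2 of the 19 stayed. Over all 15080 candidates the medians were 0.125 and 0.132 in this setting. Of these candidates 1008 reached 0.8 or more over the 8 libraries, against 377 with the treatment means alone removed. The part of microglial RNA in the followers was not tested beyond these values.

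**Figure D2:**
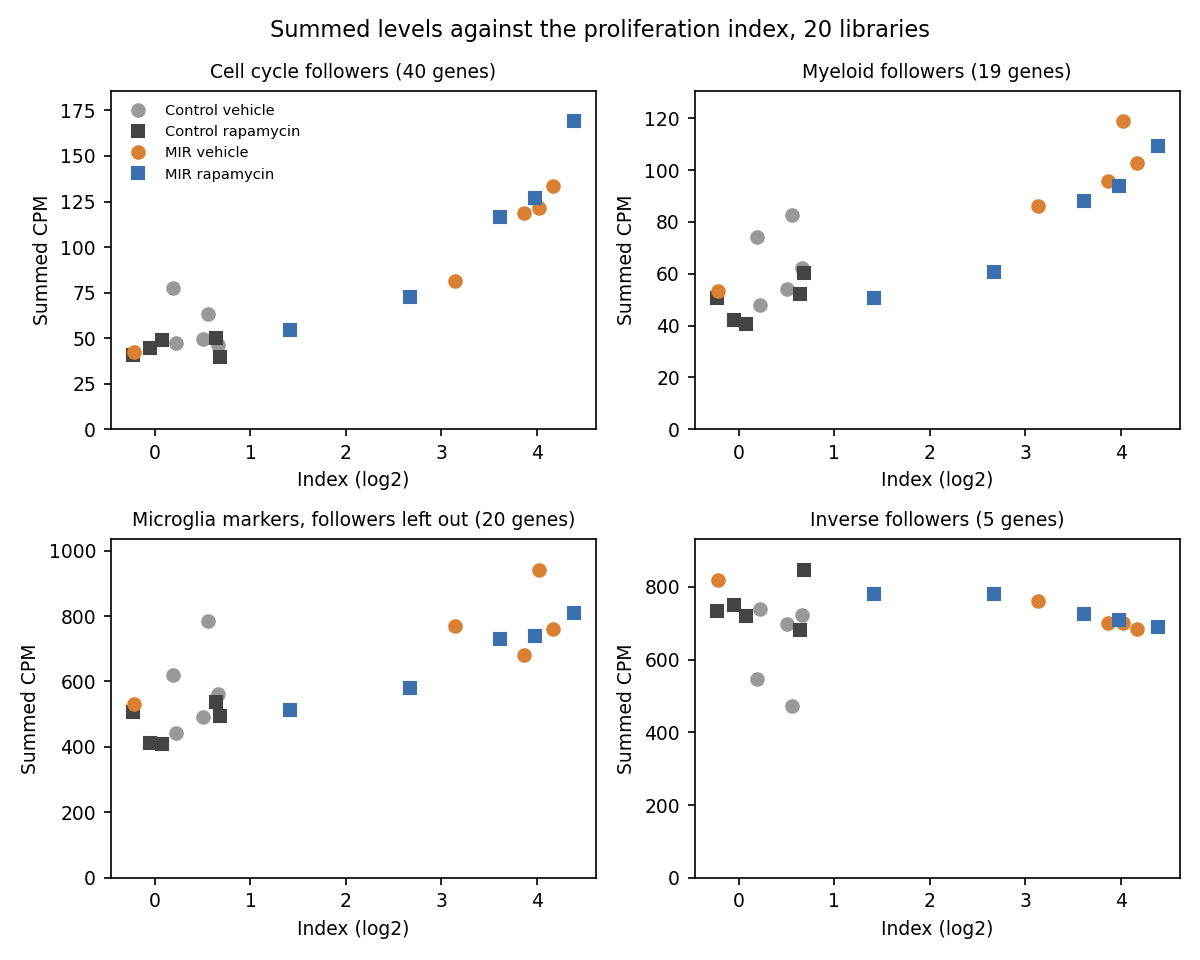
Summed CPM of the 40 cell cycle followers, the 19 myeloid followers, the microglia list without Olfml3 (20 entries) and the 5 inverse followers (y) against the index (x) in all 20 libraries, with groups by colour and shape. The cell cycle sum runs from 42.4 CPM in MIR vehicle 2 to 169 CPM in MIR rapamycin 3, and the highest control library is at 77.3 CPM for the cell cycle genes, 82.8 CPM for the myeloid genes and 784 CPM for the microglia list.

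Markers of other cells that divide in the adult brain held no follower. Of 20 oligodendrocyte precursor genes none passed, with median r values of 0.400 and 0.382, and the 13 genes of newly formed oligodendrocytes had medians of 0.317 and 0.249. The 22 genes of subventricular zone progenitors and neuroblasts were near the value over all genes, at 0.111 and 0.0194. Endothelial genes, 20 in all, were at 0.519 and 0.305 with none passing, and the 18 genes of sprouting vessels were at 0.332 and 0.264. As summed CPM, however, the endothelial list had r = 0.682 and 0.561 with the index and the sprouting list 0.623 and 0.910, and their part in the followers was not tested.

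Other immune lists held no follower either. The 11 activated microglia genes had medians of 0.484 and 0.0807, the 6 genes of border macrophages 0.513 and -0.0755, and of 20 leukocyte markers 2 reached 1 CPM and neither followed. The 15 interferon-stimulated genes were at 0.604 and 0.28. As summed CPM, however, all 20 leukocyte markers together had r = 0.434 and 0.7205 with the index. The activated microglia sum was at 0.0939 and 0.159 and the border macrophage sum at -0.0234 and -0.3498. That of the interferon list was at 0.552 and 0.2485. The part of leukocyte RNA in the followers was not tested.

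Immediate early genes moved with the index over 10 libraries and not over 8. The 18 immediate early genes, which neuronal activity switches on within minutes, had a median r of 0.715 over 10 libraries and of -0.0887 over 8. Ribosomal protein genes, 28 in all, were at 0.594 and 0.331. Genes of mature oligodendrocytes and myelin, 16 in all, were at 0.565 and 0.545, with all 16 above 0 in both sets and none a follower. Over 8 libraries this median exceeded the 0.496 of the microglia list. The part of myelin RNA in the followers was not tested. The 18 cortical excitatory genes were at -0.117 and 0.0270 and the 12 inhibitory genes at -0.345 and -0.148. Genes of thalamic neurons had medians of 0.393 and 0.166 and those of striatal neurons 0.112 and 0.252, beside 0.104 and 0.0783 over all genes. As summed CPM, however, the thalamic list was at -0.347 and -0.272 and the striatal list at -0.116 and 0.206. The 5 cerebellar genes had medians of 0.302 and -0.4835.

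**Figure D3:**
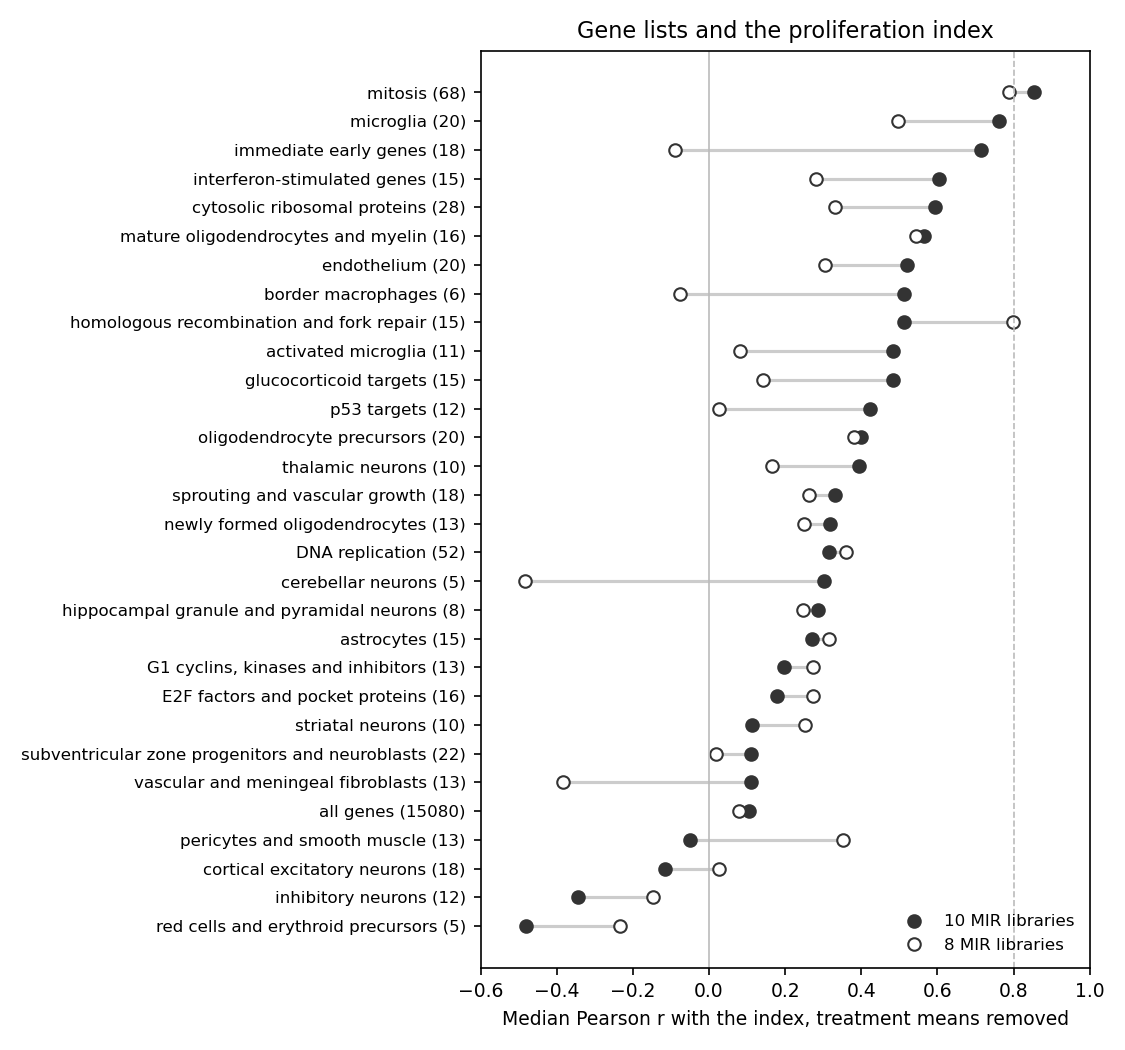
Median Pearson r with the index (x) of the genes of each list that reached 1 CPM, with their number in parentheses, over the 10 MIR libraries (filled) and over the 8 (open); lists under 5 genes are left out and the dashed line marks 0.8. Mitosis genes stand highest over 10 libraries at 0.853 and are at 0.787 over 8, where the recombination genes are at 0.799, and immediate early genes drop from 0.715 to -0.0887.

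The 26 other higher followers had a median slope of 0.122 over 10 libraries. Phf10, a subunit of the BAF chromatin remodelling complex, ran from 52.97 to 62.6 CPM over the 10 MIR libraries with r = 0.92 and 0.91, so a close relation rested on a narrow range. Ctsc, the protease cathepsin C, ran more widely, from 6.50 to 17.4 CPM in MIR vehicle and from 6.27 to 16.1 CPM in MIR rapamycin, against 3.71 to 13.9 CPM in the controls. Capn3, a calpain, ran from 5.73 to 14.1 and from 4.47 to 15.4 CPM, against 3.63 to 9.37 CPM.

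The 5 inverse followers were Rab11fip4, Acot5, Nectin3, Pcdhac2 and Pak7. Rab11fip4, an effector of the recycling GTPase Rab11, was at 564, 612, 550, 536 and 586 CPM in MIR vehicle and 573, 567, 547, 607 and 611 CPM in MIR rapamycin, with r = -0.87 and -0.93. MIR vehicle 2 and MIR rapamycin 4 and 5 were the highest, and the slope on the index was -0.04.

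Pak7, a neuronal p21-activated kinase also named Pak5, was at 69.4, 111, 70.5, 72.7 and 88.2 CPM in MIR vehicle and 68.6, 75.9, 71.2, 81.9 and 79.9 CPM in MIR rapamycin, with r = -0.92 and -0.80. Nectin3, an adhesion protein of synapses, ran from 28.9 to 40.6 CPM over the MIR libraries, and Acot5, a peroxisomal thioesterase, from 0.80 to 2.94 CPM, with MIR vehicle 2 the highest for both. Pcdhac2, a clustered protocadherin, shares its last exons with the other genes of its cluster, which lie on the same strand, so reads of the cluster can be split between them. Just inside the threshold lay Pcdhac2 at -0.807 and Pak7 at -0.8002, and just outside Arpp19 at -0.783 and Pcdhac1 at -0.771.

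The relation was also described within each treatment. Within the 5 MIR vehicle libraries the median r was 0.960 for cell cycle followers and 0.947 for myeloid followers, and within the 5 MIR rapamycin libraries 0.955 and 0.964.

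In edgeR's quasi-likelihood fit of counts on the index and treatment over the 10 MIR libraries, the slope of cell cycle followers, in log2 units of counts for each unit of index, ranged from 0.124 to 1.37. It was 1.24 ± 0.12 (SE) for Aurkb, 1.15 ± 0.12 for Cdk1, 0.87 ± 0.08 for Nusap1 and 0.72 ± 0.07 for Ccna2. Among myeloid followers it was 0.90 ± 0.12 for Adgrg5, 0.33 ± 0.05 for Olfml3, 0.27 ± 0.05 for Themis2 and 0.18 ± 0.03 for Slco2b1. Mki67 and Top2a themselves were at 1.09 and 1.20 in the fit, so that Aurkb and Cdk1 had slopes of about the same size and the myeloid genes smaller ones.

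The 10 control libraries, which the rule did not use, were fitted in the same way with an index that spanned only -0.23 to 0.68. That index rested on 9 to 35 counts of Mki67 and 2 to 23 of Top2a, so a lack of calls cannot show that genes do not follow there. No gene was called, 0% of 17313, by edgeR, and 0 by DESeq2 or limma voom. Of the 85 higher followers, 53 had a slope above 0. The share of all genes with such a slope is not given here, so the 53 are not read as a result about the followers. An unadjusted p under 0.05 was reached by 3 followers (956 of all genes did). They were Hcls1, a cortactin relative of blood cells, at 1.104 ± 0.43, Olfml3 at 0.78 ± 0.35 and Arap3, a GTPase-activating protein, at 0.63 ± 0.26. The standard errors were large, with a median of 0.689 for cell cycle followers against 0.0910 in the MIR fit. The slopes of Nusap1 (-0.57 ± 0.68), Cdk1 (1.11 ± 1.12) and Ccna2 (0.98 ± 0.53) did not differ from 0 at an unadjusted p of 0.05 in edgeR's fit. The difference between the slopes in MIR and control libraries was not tested.

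MIR and control offspring were compared next, which the rule did not use, although earlier results of these data had shown cell cycle genes higher in MIR. Members entered through a mean of 1 CPM in the MIR libraries, and 31 of the 85, 28 of them cell cycle genes, were below 1 CPM on average in the controls, so that those had to be higher in MIR and are a description with no support to be read from it. All 85 passed the count filter of the fit.

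Under vehicle, 3 followers were called higher in MIR by edgeR (adjusted p under 0.05 and a log2 fold change over 0.5), where 0.0693% of all genes were called higher and 0.0289% lower. They were Ckap2l (log2 fold change 2.20 ± 0.42 SE), Ccna2 (2.54 ± 0.49) and Prc1 (2.25 ± 0.43), each with an adjusted p of 0.048. Each was below 1 CPM on average in the controls, so they are of the kind that had to be higher. DESeq2 called 25 followers among 391 genes and limma voom 0 of 0. The calls were lost without control vehicle 1 or 3, without any of the 4 MIR vehicle libraries of high index and with control vehicle 1, 2 and 3 left out together, 1 of 25 genes called was left without control vehicle 2, and leaving out control vehicle 4 gave 9 followers among 151 genes, control vehicle 5 gave 14 among 219 and MIR vehicle 2 gave 20 among 67.

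The largest differences among cell cycle followers were those of Aurkb (4.23 ± 0.85, adjusted p = 0.056) and Dlgap5 (3.94 ± 0.96, adjusted p = 0.076). Clspn, the replication fork protein claspin, was at -1.44 (adjusted p = 0.407), and control vehicle 1 stood at 12.5 CPM against 0.30 to 1.35 CPM in the 4 others of its group. Without control vehicle 1, 2 and 3 it was at 1.36, Aurkb at 3.43 and Dlgap5 at 4.00. Over the 12 cell cycle followers with 1 CPM or more in the controls, the median was 0.259 and 9 were above 0. Over the 17 such myeloid followers it was 0.298 with 13 above 0, and over all genes -0.0184. Without control vehicle 1, 2 and 3 these medians were 0.656, 0.560 and 0.00807, with 12 of 12 and 15 of 17 above 0. Olfml3 was at 1.26 ± 0.28 (adjusted p = 0.059), Slco2b1 at 0.65 ± 0.16 (0.084) and Themis2 at 0.47 (0.417). Without the 3 control libraries they were at 1.30, 0.76 and 1.03, with adjusted p of 0.452, 0.449 and 0.577.

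Under rapamycin no follower was called by edgeR, and 0% of all genes were called higher or lower. DESeq2 called 23 followers among 88 genes and limma voom 0 of 0. Of the 54 followers at 1 CPM or more in the controls, 26 had an unadjusted p under 0.05, all higher in MIR, and 1745 of the 17313 genes tested did. The direction of the 1745 is not given here. By the rule the followers rise and fall together over the MIR libraries, so the 26 are not separate results and their number carries no support. Over the 12 cell cycle followers at 1 CPM or more in the controls the median log2 fold change was 0.740 with 12 above 0, and over the 17 such myeloid followers 0.626 with 17 above 0, beside 0.00218 over all genes. Casc5 was at 4.54 ± 0.78, Bub1b at 4.1995 ± 0.80 and Cdk1 at 3.72 ± 0.79, each with an adjusted p of 0.10002. With control vehicle 1, 2 and 3 left out, 6 followers were called among 34 genes, and 14 among 35 without MIR rapamycin 4.

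**Figure D4:**
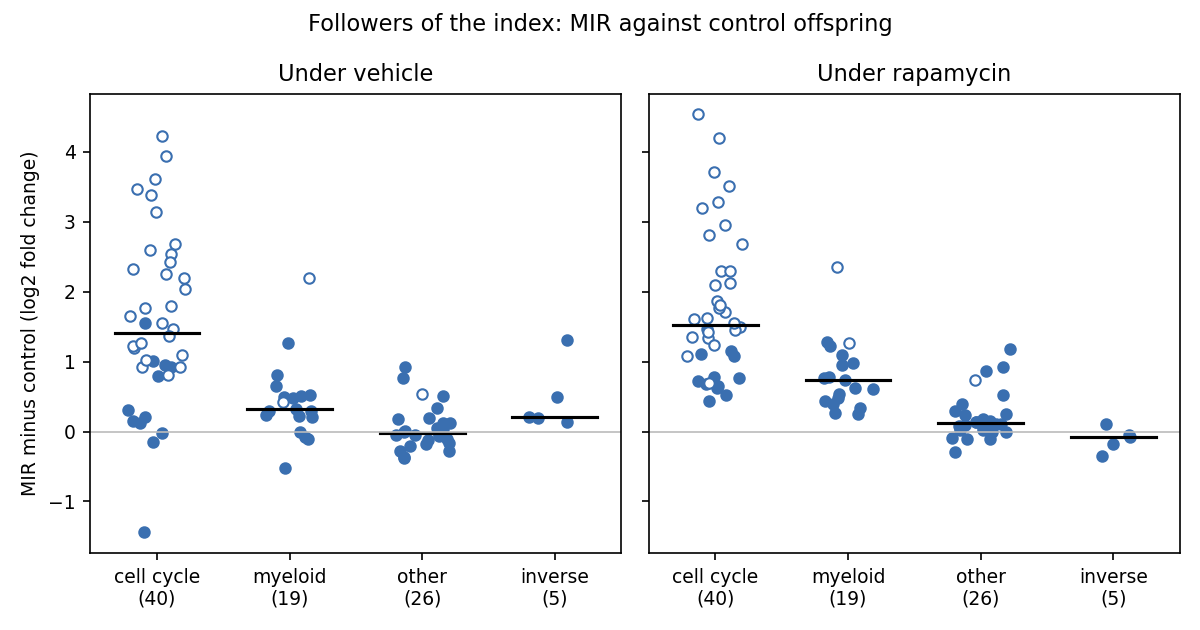
Log2 fold change of MIR minus control offspring (y) for each follower by gene group, under vehicle (left) and under rapamycin (right), with the median as a bar; open circles are followers below 1 CPM on average in the controls. The median of the 40 cell cycle followers is 1.42 under vehicle and 1.52 under rapamycin, with 28 of the 40 open circles, and that of the 26 other genes lies near 0.

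Whether these differences changed with the treatment was tested as the difference of the MIR effect under rapamycin and under vehicle, a comparison added after seeing the data. No gene was called by edgeR, 0% of 17313. Of the 85 followers 3 had an unadjusted p under 0.05, against 2200 of all genes, and the other tools were not run for it. The 5 inverse followers were all higher in MIR under vehicle, by 0.14 to 1.30, and 1 of the 5 was under rapamycin, with 0 called. The share of all genes that were higher is not given here, so these counts are not read as a result about the inverse followers. Without control vehicle 1, 2 and 3 Nectin3 turned to -0.11 and Rab11fip4 to -0.01 under vehicle, and Pak7 was at 0.09.

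Rapamycin against vehicle within MIR offspring, where 0.0116% of all genes were called higher and 0.00578% lower, called no follower by edgeR, DESeq2 or limma voom. An unadjusted p under 0.05 was reached by 3 of the 85, namely Atraid (0.30 ± 0.09, adjusted p = 0.444), F11r (-0.47 ± 0.21) and the peroxidase Pxdn (0.49 ± 0.22). They are named for their p alone. The count over all genes is not given here, so the 3 are not read as a result about the followers. The median log2 fold change was 0.0914 over the cell cycle followers, from -0.247 to 0.462 with a median standard error of 0.438, and -0.136 over the myeloid followers. Mki67 was at -0.04 and Top2a at -0.04.

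Promoters gave a property that the rule had not used. RefSeq promoters, from 250 bases before to 50 after the first listed start, were matched for 76 of the 90 followers, 31 of them cell cycle and 18 myeloid. For Pgm2, in the group of other genes, the promoter matched by symbol lies on chromosome 5. The follower itself lies on chromosome 4 and is Pgm1 in GENCODE M21, so this match is to another gene. The letters CCAAT, on either strand, stood in 23 of the 31 cell cycle promoters (74.2%), in 3 of the 18 myeloid ones (16.7%) and in 37.9% of the 27025 promoters of the table. TTTGAA stood in 19 (61.3%), 4 (22.2%) and 18.1%, and TTTAAA in 6 (19.4%), 1 (5.56%) and 13.2%.

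CCAAT together with TTTGAA or TTTAAA was found in 18 of the 31 cell cycle promoters (58.1%), in 1 of the 18 myeloid ones and in 10.9% of all promoters, and in 7.27% of those of the 10571 genes at 1 CPM or more that did not follow. Both index genes held them, as their sequences above show, where Top2a has 4 copies of CCAAT or ATTGG and Mki67 2. In the stretch shown, Cdk1 has 2 copies of ATTGG and 1 of TTTGAA, and Plk1 has 1 CCAAT and 2 of TTTAAA.

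Any of the E2F cores, which were spelled TTTGGCGC or else TTTCCCGC or else TTCCCGCC or else TTTGCCGC or else TTTGGCGG and are known from promoters of S phase genes, stood in 4 of the 31 cell cycle promoters (12.9%), 1 of the 18 myeloid ones (5.56%), 4.17% of all and 7.19% of those of expressed genes that did not follow. GAGGAAGT, the core bound by the myeloid factor PU.1 and searched after the values were seen, stood in 3 of the 18 myeloid promoters (16.7%), in 1 of the 31 cell cycle promoters and in 3.28% of all. Neither the Themis2 nor the Arhgap30 window above has TTTGAA or TTTAAA. These are matches of letters, with no test, and motifs of different kinds can stand in the same promoter.

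The followers lay on 20 chromosomes, and 89 of the 90 were protein-coding in GENCODE M21. Another gene overlapped 32 of them on the opposite strand and 11 on the same strand. The library kit was stranded, but no source names the strand setting used in counting, so reads of overlapping pairs such as Nusap1 and Oip5, Ccna2 and Exosc9, or Ube2c and Tnnc2 may be shared.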

How the data were processed

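RNA was sequenced from 20 brain libraries made with a stranded mRNA kit. Per the labels, the authors aligned reads to mm10 with STAR 2.4.0 and counted them per gene with HTSeq 0.6.1, and the deposited table holds raw counts, not normalized. The strand setting of the counting was not given in the sources used here. The study's methods describe more mice than the 20 libraries analysed here.

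Groups came from the labels. CPM was counts over the column total, and logs were log2(CPM + 0.5). Genes were fitted with edgeR 4.0.16 (TMM scaling, filterByExpr with min.count 10 and min.total.count 15, quasi-likelihood test, Benjamini-Hochberg adjustment) in R 4.3.3 over 17313 genes: the index with treatment as covariate over the 10 MIR or the 10 control libraries, and group differences in 1 fit of the 4 groups. Group calls needed an adjusted p under 0.05 and a log2 change beyond 0.5, slopes the adjusted p alone. DESeq2 1.42.0 and limma 3.58.1 (voom) were alternatives, and the fits were tested on simulated data. Positions came from GENCODE M21 and promoters from RefSeq.

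The members and gene lists were chosen with earlier results of these data known, and followers were grouped by function after their values were seen. Genes named were the index genes, the 12 higher followers of largest r, the inverse followers, up to 4 more of each list, those at the thresholds and those called or of smallest p in a comparison. Other genes named (Capn3, Phf10, Ctsc, Clspn, Dlgap5, Mcm, Ccnd and microglia list genes among them) were chosen after their values were seen.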

Additional observations from a re-analysis of the deposited data

Results flagged for a closer look

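In 24 measures (the index, log2 total counts and the log2 CPM of named genes) each of the 4 groups of 5 libraries was tested for a library far from the others. The measure of distance was the gap to its neighbour over the range of the group (Dixon's ratio, with a 95% limit of 0.71 for 5 libraries). Of 96 sets, 11 passed, 6 of them for MIR vehicle 2. Chance gives about 1 in 20, but most of these genes were chosen for following an index in which that library is the lowest, so its values restate the choice and cannot be read against that rate.

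MIR vehicle 2 was the lowest of its group for the index (ratio 0.764), Mki67 (0.792), Top2a (0.737), Cenpe (0.795), Themis2 (0.757) and Adgrg5 (0.758). Control vehicle 2 was the highest of its group for Adgrg5 (0.733) and for Rbl1 (0.737). Control rapamycin 1 was the highest for Adgrg5 (0.76) and for Rab11fip4 (0.826), and control vehicle 1 was the lowest for Nectin3 (0.74).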

How the results depend on the processing

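The rapamycin minus vehicle difference of the index, 0.217, was -0.137 without MIR vehicle 2 and MIR rapamycin 4 and ran from -0.587 to 0.667 with single libraries left out. The 85 higher and 5 inverse followers became 69 and 28 with TMM scaling, 226 and 20 at a threshold of 0.7 and 19 and 0 at 0.9. There were 358 and 67 by the 10 libraries alone and 377 and 88 by the 8 alone. With the microglia level removed there were 144 and 34, but only 13 and 1 of these were among the 85 and 5. At a mean of 5 CPM 28 were higher, and without removing treatment means 51. Spearman rho gave 115 higher, 42 of them among the 85, and 12 inverse followers, and Mki67 alone 3 inverse. With single libraries left out, the threshold applying to the 9 left, there were 329 to 523 and 50 to 139.

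Genes called on the slope among MIR libraries fell from 123 to 2 with 8 libraries. These calls are a description only, since the same values chose the members. With the index taken from the higher followers, 543 genes and 1 follower were called in the controls. Genes called by edgeR (3 for rapamycin in MIR, 17 for MIR under vehicle, 0 under rapamycin) were 35, 391 and 88 with DESeq2, with 25 followers under vehicle and 23 under rapamycin. Under vehicle, limma voom called 0 genes and 0 followers, and no count filter gave 63 and 12. Without control vehicle 1, 2 and 3 they were 22, 0 and 34, with 0 and 6 followers, and with only the compared groups 31, 0 and 27, with 0 and 7. With single libraries left out they ran from 2 to 6, from 0 to 219 (0 to 20 followers) and from 0 to 35 (0 to 14), and stayed at 0 for the control slope. The cause was not tested.

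Same-numbered libraries deviated together with r of -0.208 to 0.145, so they share only a number. With the replicate block, higher and inverse followers were 473 (60 among the 85) and 153. In that setting the MIR slope, a description only, called 7 genes, rapamycin in MIR 5, and MIR under vehicle 0 genes and 0 followers. The cell cycle followers rest on few counts, and control levels near 0 limit their fold changes.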
